A study of Homo sapiens with 4 samples.

Results

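The small RNA machinery described here consists of 10 genes, DROSHA, DGCR8, DICER1, TARBP2, AGO1, AGO2, AGO3, TNRC6A, TNRC6B and TNRC6C, chosen by symbol among 28930 gene symbols. All 10 were found under these current symbols and all 10 passed the filter on low counts, which left 13022 genes for testing. The cells were of the line MDA-MB-231, derived from a human breast cancer that lacks estrogen and progesterone receptors and has mesenchymal features. They were given either an siRNA against hTrmt13 (hTrmt13 siKnockdown, 2 libraries) or a control siRNA (hTrmt13 siControl, 2 libraries). hTrmt13, encoded by TRMT13, is a methyltransferase that modifies the ribose of tRNA. Both groups thus carried an siRNA, and no library of cells without one was analysed here, so the comparison is between siRNAs and not of siRNA treatment with none. The sources used here give no siRNA sequence, dose or time. They also do not say whether the replicates are separate cultures, so each p-value reflects the spread between libraries, which may be technical.

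MicroRNAs are made in steps. In the nucleus the Microprocessor, built of the RNase III enzyme Drosha and its RNA-binding partner DGCR8, cuts a hairpin out of a longer transcript. Exportin-5 carries the hairpin to the cytoplasm, where Dicer and its partner TRBP, encoded by TARBP2, cut it to a short duplex. An Argonaute protein keeps one strand as its guide, and a TNRC6 (GW182) protein bound to Argonaute recruits the enzymes that shorten the poly(A) tail and remove the cap of the target. A synthetic siRNA duplex skips the first cuts and enters at Argonaute, and among the Argonautes AGO2 is the one best known for slicing a fully matched target. The pathway also acts on itself, because the Microprocessor can cut hairpins that lie within the DGCR8 mRNA.

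The sequences those hairpins yield are shown here because they sit within a member of the machinery. Capitals mark the seed (bases 2 to 8), and the sequences are from RefSeq on GRCh38.p14. By the GENCODE release 29 annotation of GRCh38, miR-3618 lies in the untranslated part of a DGCR8 exon and both miR-1306 arms lie in its coding sequence.
hsa-miR-3618, chr22:20085797-20085818, plus strand: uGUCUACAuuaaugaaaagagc
hsa-miR-1306-5p, chr22:20086072-20086093, plus strand: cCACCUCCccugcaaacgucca
hsa-miR-1306-3p, chr22:20086112-20086129, plus strand: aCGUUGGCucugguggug

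The depth was 10606149 and 13098985 counts in the TRMT13 siRNA libraries, and 9777267 and 12851510 counts in the control siRNA libraries. TRMT13 had 3.52 and 4.79 CPM (a gene's share of the library's counts, scaled by the trimmed mean of M-values, TMM) with TRMT13 siRNA, against 14.9 and 18.9 CPM with control siRNA. It fell by 2.02 on the log2 scale (SE 0.34, edgeR quasi-likelihood test, adjusted p = 0.0399), so each library went with its label. The 5 markers of a mesenchymal triple-negative line (VIM, CD44, CAV1, AXL and LGALS1) summed to 4100 and 4110 CPM with TRMT13 siRNA and to 4260 and 4610 CPM with control siRNA. CD44 (log2 fold change -0.79) and AXL (-0.72) lay wholly lower with TRMT13 siRNA. LGALS1 (0.28) lay wholly higher, and VIM and CAV1 overlapped. Of 6 luminal breast markers, ESR1 and PGR were at 0 in every library, and the list summed to 13.4 and 13.7 CPM with TRMT13 siRNA, against 22.8 and 26.1 CPM with control siRNA. The sums of both lists were thus lower with TRMT13 siRNA, but the mesenchymal markers were mixed in direction. Over all genes tested, 54.3% kept the groups apart in this way. The part of these markers in the results was not tested. The 4 blood cell markers and the 4 markers of fibroblasts and endothelium analysed here summed to at most 1.55 CPM in any library, with CD3E, HBB and DCN at 0 in all of them.

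Across the 10 members, none passed an adjusted p of 0.05 in the edgeR quasi-likelihood test, with 0 higher and 0 lower, beside 2.99% of all genes tested (1.03% higher and 1.96% lower). At an unadjusted p under 0.05 there were 3 members (DROSHA, DICER1 and TNRC6A), beside 24.0% of all genes. DESeq2 called 1 of the 10, DROSHA, beside 8.55% of the genes to which it gave an adjusted p, and limma-voom called 0, beside 2.50% of all genes. Leaving out 1 library at a time gave 678 to 935 calls over all genes, in place of 389, and 0 members each time. Such a fit leaves 1 library in a group, which is assumed to vary like the other group, and its calls add no support. The members' log2 fold changes ran from -0.72 for DICER1 to 0.89 for DROSHA, with 4 positive and 6 negative, and their median was -0.09, beside 0.01 over all genes. Their median absolute log2 fold change was 0.36, beside 0.40 over all genes. For 6 of the 10 the TRMT13 siRNA libraries lay wholly on one side of the control siRNA libraries, 2 above and 4 below. Over all genes tested this held for 54.3%, with 27.5% of all genes above and 26.8% below. These counts are close to the background or too few to set apart from it. With the replicate number as a block, edgeR called 5 of the 10, beside 40.1% of all genes tested. The labels do not say what that number stands for. The count of 0 called members thus depends on leaving it out of the fit.

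**Figure D1:**
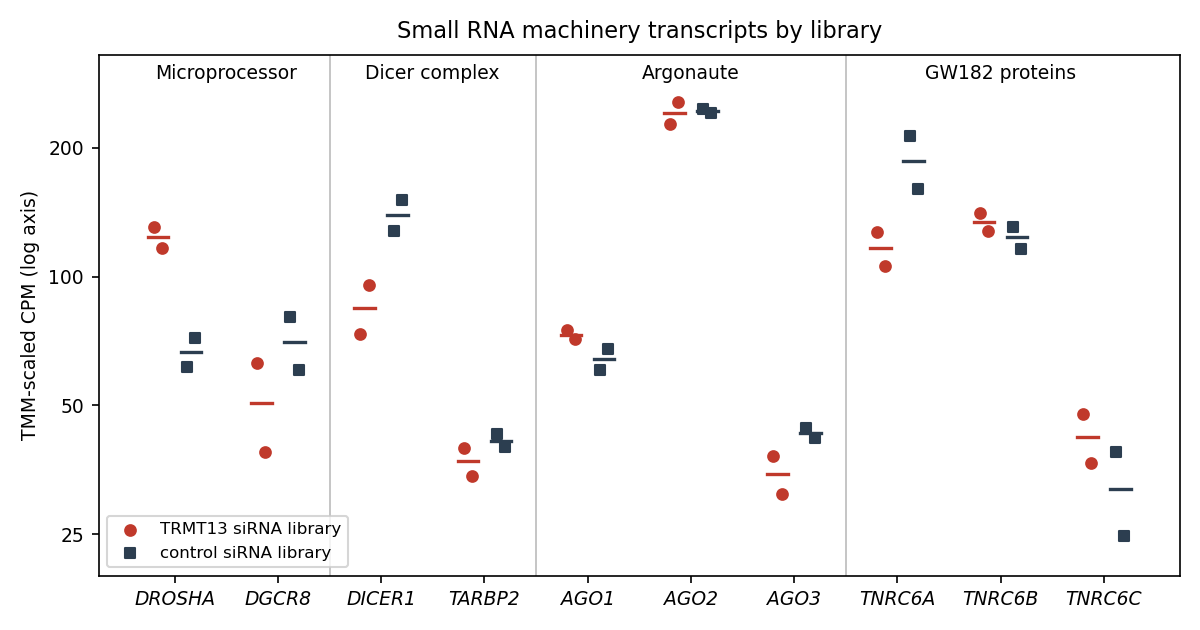
TMM-scaled CPM (log axis) of the 10 genes, grouped by role. Circles are the 2 TRMT13 siRNA libraries, squares the 2 control siRNA libraries, and short lines the group means. DROSHA lies higher with TRMT13 siRNA (131 and 117 CPM, against 61.5 and 71.8 CPM with control siRNA), DICER1 and TNRC6A lie lower, and AGO2 overlaps.

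DROSHA, the nuclear RNase III enzyme, had the smallest p of the 10. It stood at 131 and 117 CPM in the TRMT13 siRNA libraries (1379 and 1557 counts), against 61.5 and 71.8 CPM in the control siRNA libraries (589 and 928 counts). Both TRMT13 siRNA libraries were above both control siRNA libraries, with a gap wider than the spread within either group. The means were 124 ± 10.3 CPM with TRMT13 siRNA and 66.6 ± 7.28 CPM with control siRNA (SD, n = 2 each), 1.86-fold higher in the fit. On the log2 scale this was 0.89 (SE 0.22, 95% interval 0.37 to 1.41, edgeR adjusted p = 0.0747). The adjusted p sat close to the threshold. It was 0.0354 in DESeq2 and 0.0177 in edgeR with no filter on low counts, and it ran from 0.0732 to 0.318 with 1 library left out. In GENCODE release 29 the gene lies on the minus strand at chr5:31400497-31532196 (GRCh38), and C5orf22 starts close by in the opposite direction. C5orf22 had 42.7 and 63.7 CPM with TRMT13 siRNA, against 39.1 and 54.5 CPM with control siRNA. Its groups overlapped, with 0.18 on the log2 scale (SE 0.30, edgeR adjusted p = 0.752). No gene of that annotation shares exon bases with DROSHA.

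DGCR8, the partner that grips the hairpin for Drosha, went the other way in value but not past the test. It had 62.7 and 38.9 CPM with TRMT13 siRNA and 80.5 and 60.5 CPM with control siRNA. The groups overlapped, since the first TRMT13 siRNA library was above the second control siRNA library. Within each replicate number, though, DGCR8 was lower with TRMT13 siRNA. On the log2 scale the difference was -0.47 (SE 0.31, 95% interval -1.20 to 0.25, edgeR adjusted p = 0.392). The value was -0.17 without TRMT13 siRNA replicate 2 and -0.85 without TRMT13 siRNA replicate 1, with adjusted p = 0.794 and 0.131, so the value depends on which library is left out. DGCR8 exons share bases with the annotated hairpins of the miRNAs printed above (88 bases for MIR3618 and 85 for MIR1306). On the opposite strand, they share at most 439 bases with any single exon of an antisense gene. With any single exon of TRMT2A, also on that strand, they share at most 10 bases. The sources used here do not say how reads there were assigned. TRMT2A had 38.0 and 27.3 CPM with TRMT13 siRNA and 28.3 and 29.5 CPM with control siRNA, which overlap (log2 fold change 0.17, SE 0.27, edgeR adjusted p = 0.736).

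The balance between the Microprocessor's 2 parts can be read within a library, free of any scaling between libraries. There were 2.09 and 3 DROSHA counts per DGCR8 count with TRMT13 siRNA, against 0.764 and 1.19 with control siRNA. DROSHA took 67.7% and 75% of their joint counts in the TRMT13 siRNA libraries, with 95% exact binomial intervals of 65.6% to 69.7% and 73.1% to 76.9%. In the control siRNA libraries its share was 43.3% and 54.3%, with intervals of 40.7% to 46.0% and 51.9% to 56.7%. These intervals cover counting error only. The groups did not overlap, and the mean log2 ratio was 1.40 higher with TRMT13 siRNA. This ratio, like the other ratios and shares below, was chosen after the values were seen. With 2 libraries a group, an exact two-sided permutation test cannot give a p below 0.333, so none of them can pass that test. No other test was run on them.

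DICER1, the cytoplasmic enzyme that cuts the hairpin to a duplex, had 73.6 and 95.5 CPM with TRMT13 siRNA, against 128 and 151 CPM with control siRNA. Both TRMT13 siRNA libraries lay below both control siRNA libraries, and within each group replicate 2 was the higher one. The means were 84.5 ± 15.5 CPM with TRMT13 siRNA and 139 ± 15.9 CPM with control siRNA (SD, n = 2 each), 1.65-fold lower in the fit. The log2 fold change, -0.72, had an SE of 0.24 and a 95% interval of -1.28 to -0.16, with an edgeR adjusted p of 0.133, so it did not pass after adjustment over all genes. Without any 1 library it lay between -0.92 and -0.54, always negative. The gene lies on the minus strand at chr14:95086228-95158010 (GRCh38). On the opposite strand, any single exon of DICER1-AS1 shares at most 80 bases with DICER1 exons. DICER1-AS1 was not analysed here.

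The 2 RNase III enzymes differed in direction of value. For each DROSHA count there were 0.561 and 0.819 DICER1 counts with TRMT13 siRNA, against 2.08 and 2.1 with control siRNA. The control siRNA libraries were nearly equal in this ratio, and both TRMT13 siRNA libraries were far below them, a mean difference of -1.63 on the log2 scale.

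TARBP2, whose protein TRBP binds double-stranded RNA beside Dicer, had 39.8 and 34.2 CPM with TRMT13 siRNA and 42.9 and 39.9 CPM with control siRNA. The highest TRMT13 siRNA value was just below the lowest control siRNA value. Its log2 fold change was -0.16 (SE 0.24, 95% interval -0.72 to 0.40, edgeR adjusted p = 0.718), an interval that leaves room for a fold difference of up to 1.65 downward and 1.32 upward. There were 1.85 and 2.80 DICER1 counts per TARBP2 count with TRMT13 siRNA, against 2.99 and 3.78 with control siRNA.

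**Figure D2:**
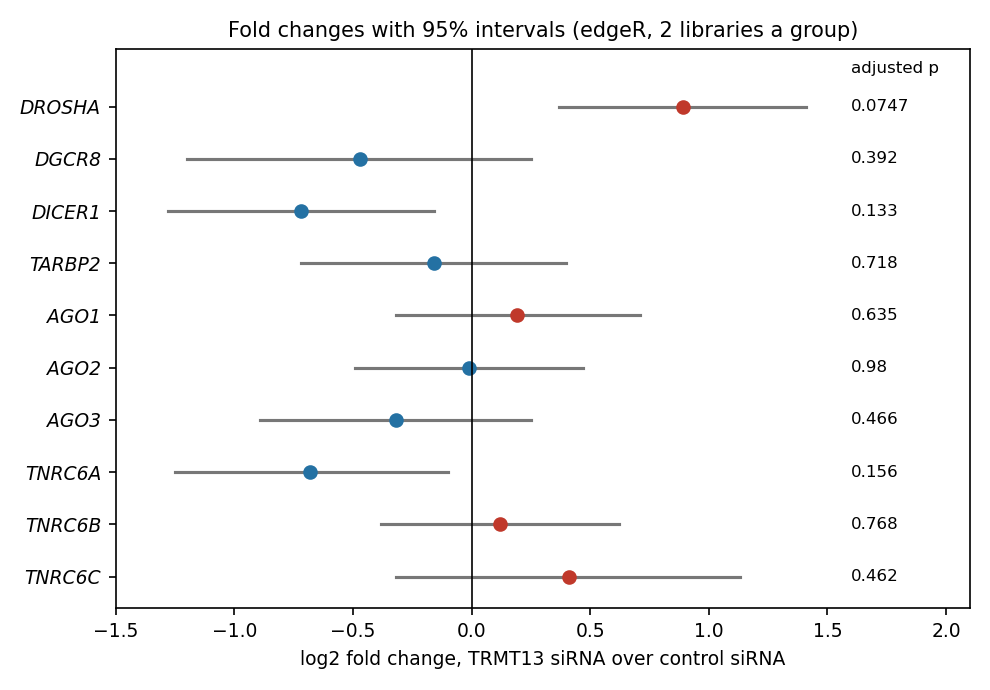
Log2 fold change of each gene, TRMT13 siRNA over control siRNA, with the 95% interval of the edgeR fit (2 libraries a group) and the p adjusted over 13022 genes. The intervals of DROSHA, DICER1 and TNRC6A lie off 0 before adjustment, and no adjusted p is under 0.05.

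Among the Argonautes, AGO2 had the most counts of any member and the smallest log2 fold change in size. It stood at 227 and 256 CPM with TRMT13 siRNA and at 246 and 241 CPM with control siRNA. The control siRNA values lay between the TRMT13 siRNA values. The log2 fold change was -0.01 (SE 0.20, edgeR adjusted p = 0.980), and its 95% interval of -0.49 to 0.47 allows a level from 0.712 to 1.38 times that with control siRNA. The sign of so small a value turned with library size as the only scaling (0.01), without control siRNA replicate 1 (0.01) and without TRMT13 siRNA replicate 1 (0.08).

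AGO1, an Argonaute that silences without slicing, had 75.1 and 71.4 CPM with TRMT13 siRNA and 60.5 and 67.7 CPM with control siRNA. The groups did not overlap, though the gap was small beside the spread, and the log2 fold change was 0.19 (SE 0.22, 95% interval -0.32 to 0.71, edgeR adjusted p = 0.635). AGO3 had 38.1 and 31.1 CPM with TRMT13 siRNA and 44.3 and 42.0 CPM with control siRNA. Both TRMT13 siRNA values were below the control siRNA values, its log2 fold change being -0.32 (SE 0.24, 95% interval -0.89 to 0.25, edgeR adjusted p = 0.466).

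AGO4, the family's remaining Argonaute and not among the 10, was the gene with the smallest p in the list of other Argonaute family genes. It had 16.9 and 21.5 CPM with TRMT13 siRNA, against 39.7 and 36.2 CPM with control siRNA. The groups lay well apart, and the log2 fold change was -0.98 (SE 0.26, edgeR adjusted p = 0.0867). DESeq2 called it at an adjusted p of 0.0455. In RefSeq on GRCh38.p14, AGO4 (chr1:35807636-35857890), AGO1 (chr1:35869761-35930532) and AGO3 (chr1:35930718-36072500) follow each other on the plus strand, so neighbours in 1 cluster had log2 fold changes of -0.98, 0.19 and -0.32. Within a library there were 4.44 and 3.32 AGO1 counts per AGO4 count with TRMT13 siRNA, against 1.53 and 1.87 with control siRNA, which do not overlap. AGO1 counts per AGO2 count did overlap, at 0.331 and 0.279 with TRMT13 siRNA and 0.246 and 0.281 with control siRNA.

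As a share of all AGO1 to AGO4 counts, AGO4 held 4.74% and 5.66% with TRMT13 siRNA, against 10.2% and 9.35% with control siRNA. AGO2 held 63.6% and 67.3% with TRMT13 siRNA and 63.0% and 62.3% with control siRNA. AGO1 held 21.0% and 18.8% with TRMT13 siRNA, against 15.5% and 17.5% with control siRNA. AGO2 thus supplied at least 62.3% of the Argonaute counts in every library, although counts are not corrected for transcript length. The 4 PIWI genes, Argonaute relatives best known from the germ line, were low, and 1 of them passed the filter. That gene, PIWIL1, picked out after its values were seen, was at 3.42 and 1.87 CPM with TRMT13 siRNA and 5.85 and 3.33 CPM with control siRNA.

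The 3 TNRC6 genes encode the scaffolds that link Argonaute to deadenylation. TNRC6A had 127 and 106 CPM with TRMT13 siRNA, against 213 and 160 CPM with control siRNA. Both TRMT13 siRNA libraries were lower, while the 2 control siRNA libraries differed from each other by more than the gap between the groups. The difference was -0.68 on the log2 scale (SE 0.24, 95% interval -1.25 to -0.10, edgeR adjusted p = 0.156), and it was -0.45 without control siRNA replicate 1. TNRC6B had 141 and 128 CPM with TRMT13 siRNA and 131 and 116 CPM with control siRNA, which overlap. Within each replicate number it was higher with TRMT13 siRNA. Its log2 fold change was 0.12 (SE 0.21, 95% interval -0.38 to 0.62, edgeR adjusted p = 0.768).

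TNRC6C had the fewest counts of the 3, with 47.8 and 36.6 CPM with TRMT13 siRNA and 38.9 and 24.8 CPM with control siRNA. The groups overlapped, and in both of them replicate 1 was the higher library. Within each replicate number, though, TNRC6C was higher with TRMT13 siRNA. On the log2 scale it was 0.41 (SE 0.31, 95% interval -0.32 to 1.13, edgeR adjusted p = 0.462), between 0.12 and 0.77 without any 1 library. In GENCODE release 29, TNRC6C exons share at most 443 bases with any single exon of TNRC6C-AS1 on the opposite strand. TNRC6C-AS1 was not analysed here.

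Set against each other within a library, each TNRC6 gene's share kept the groups apart. The shares make up a whole, so a fall in any raises the rest, and they are not 3 separate results. In CPM, TNRC6B and TNRC6C overlapped between the groups. By level alone 54.3% of all genes tested kept the groups apart, and no such background was computed for shares. TNRC6A held 40.3% and 39.2% of the 3 genes' counts with TRMT13 siRNA, against 55.6% and 53.1% with control siRNA. The 95% exact binomial intervals were 38.6% to 42.0% and 37.6% to 40.8% with TRMT13 siRNA, and 54.0% to 57.2% and 51.5% to 54.7% with control siRNA. TNRC6B held 44.6% and 47.3% with TRMT13 siRNA, against 34.2% and 38.6% with control siRNA. TNRC6C held 15.1% and 13.5% with TRMT13 siRNA, against 10.2% and 8.26% with control siRNA. TNRC6B thus had the largest share of counts in both TRMT13 siRNA libraries and TNRC6A in both control siRNA libraries. These counts are not corrected for transcript length. Per kilobase of exon TNRC6A (12.5 to 25.2 CPM) was above TNRC6B (6.17 to 7.5 CPM) in every library. Per kilobase of coding sequence TNRC6A had 21.6 and 18 CPM with TRMT13 siRNA, below TNRC6B at 25.6 and 23.3 CPM. With control siRNA it had 36.2 and 27.2 CPM, above TNRC6B at 23.8 and 21.1 CPM. There were 1.11 and 1.21 TNRC6B counts per TNRC6A count with TRMT13 siRNA, against 0.615 and 0.727 with control siRNA.

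**Figure D3:**
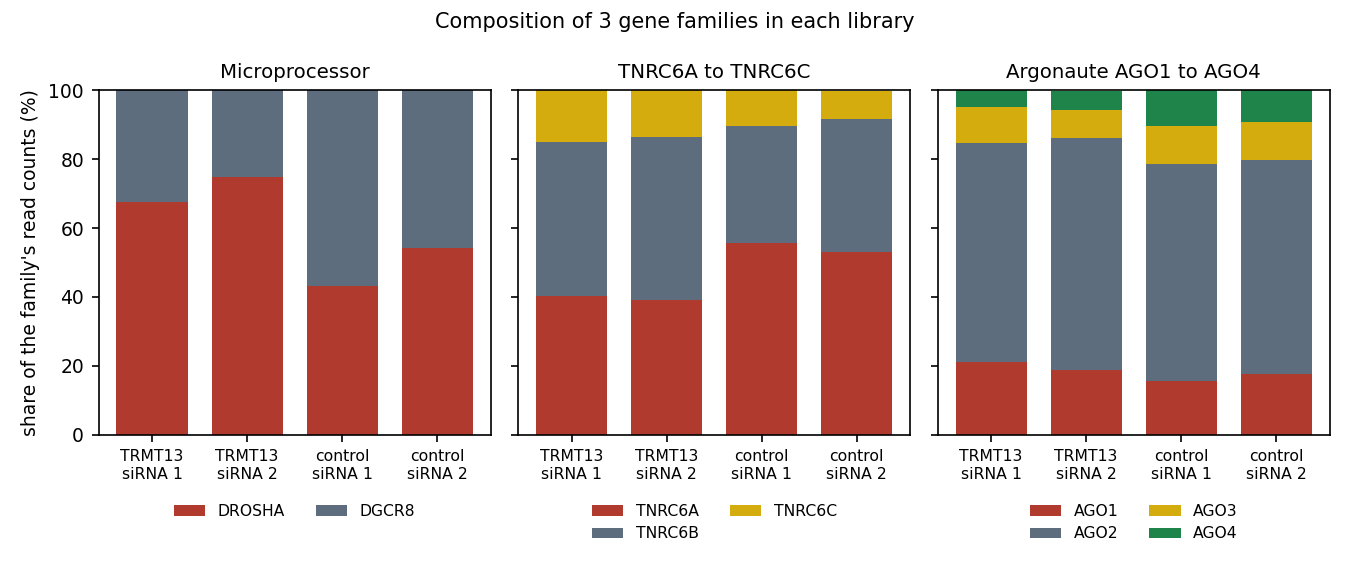
Share (%) of each family's read counts taken by each gene, in the 2 TRMT13 siRNA and the 2 control siRNA libraries. DROSHA takes 67.7% and 75% of the Microprocessor counts with TRMT13 siRNA, against 43.3% and 54.3% with control siRNA, and TNRC6A takes 40.3% and 39.2% of the TNRC6 counts with TRMT13 siRNA, against 55.6% and 53.1% with control siRNA.

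Levels of different genes can be set side by side only per length. Per kilobase of exon, merged over the coding transcripts of GENCODE release 29, DROSHA had the highest mean with TRMT13 siRNA, at 22.8 CPM per kilobase, and TNRC6A the highest with control siRNA, at 22 CPM per kilobase. AGO3 was the lowest in every library, at 1.51 to 2.15 CPM per kilobase over the 4 libraries. Next came TNRC6C (2.49 to 4.80) and AGO1 (4.38 to 5.44), whose ranges overlap, and then TNRC6B (6.17 to 7.5 CPM per kilobase), which AGO1 did not reach. DICER1 (6.87 to 14.1), DGCR8 (8.61 to 17.8), DROSHA (11.3 to 24.1), TNRC6A (12.5 to 25.2), AGO2 (15.6 to 17.6) and TARBP2 (17.5 to 21.9 CPM per kilobase) formed a run in which each range overlaps the next. This order rests on the length used. Per kilobase of coding sequence AGO2 was the highest in every library, at 88.1 to 99.3 CPM per coding kilobase, and TNRC6C was the lowest, at 4.25 to 8.20 CPM per coding kilobase.

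The genes around the machinery were described from 8 lists, with counts from the same edgeR fit beside the background of 2.99% called and 24.0% at an unadjusted p under 0.05. In that fit no gene of any list passed the adjusted threshold, and limma-voom called none of the 84 list genes tested. With no filter on low counts edgeR called 7 of 100 list genes (DDX5, AGO4, CNOT6, DDX6, ZSWIM8, PARN and MIR503HG), which is 7%, beside 10.5% of all genes in that fit. DESeq2 called 5 of 85, or 5.88%, beside its 8.55%. The 11 Microprocessor helpers had a median log2 fold change of 0.00, with 1 gene at an unadjusted p under 0.05 and 0 called by DESeq2. That gene was DDX5, an RNA helicase of the Microprocessor, with 476 and 593 CPM under TRMT13 siRNA, against 935 and 785 CPM under control siRNA (log2 fold change -0.69, SE 0.22, edgeR adjusted p = 0.130). Among 7 genes of hairpin export, Dicer partners and activators of the RNA-induced silencing complex (RISC), the median was 0.10, with 3 at an unadjusted p under 0.05 and 0 called by DESeq2. The smallest p there was that of SND1, a nuclease found with that complex, at 353 and 329 CPM with TRMT13 siRNA, against 204 and 252 CPM with control siRNA (log2 fold change 0.58, SE 0.21, edgeR adjusted p = 0.168). XPO5, which encodes exportin-5, was picked out after its values were seen. It had 150 and 159 CPM with TRMT13 siRNA, against 89.1 and 117 CPM with control siRNA, and its log2 fold change was 0.58 (SE 0.23, edgeR adjusted p = 0.186).

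The 8 chaperones that help load RISC had a median of -0.03, with 0 at an unadjusted p under 0.05 and 0 called by DESeq2. STIP1, the co-chaperone Hop, had the smallest p, at 253 and 247 CPM with TRMT13 siRNA, against 327 and 348 CPM with control siRNA (log2 fold change -0.43, SE 0.20, edgeR adjusted p = 0.241). The 25 silencing effectors, which are deadenylases, decapping factors and their partners, had 17 negative and 8 positive log2 fold changes and a median of -0.26, beside 0.01 over all genes. Of them 6 were at an unadjusted p under 0.05, which is 24%, as over all genes, and DESeq2 called 2, DDX6 and CNOT6, too few to set apart from its 8.55% over all genes. DDX6, a helicase that joins deadenylation to decapping, had 47.4 and 83.7 CPM with TRMT13 siRNA, against 151 and 177 CPM with control siRNA. Its groups lay wide apart, its log2 fold change being -1.32 (SE 0.31, edgeR adjusted p = 0.0694, DESeq2 adjusted p = 0.00326). CNOT6, a deadenylase picked out after its values were seen, had 38.8 and 67.3 CPM with TRMT13 siRNA, against 105 and 134 CPM with control siRNA (log2 fold change -1.17, SE 0.31, edgeR adjusted p = 0.0922, DESeq2 adjusted p = 0.0147). With 1 library left out, and thus a group of 1, DDX6 passed edgeR without control siRNA replicate 1 (adjusted p = 0.0107) or 2 (0.0436) and without TRMT13 siRNA replicate 2 (0.0152). CNOT6 passed without control siRNA replicate 1 (edgeR adjusted p = 0.0305) and without TRMT13 siRNA replicate 2 (0.0227). Both genes were higher in replicate 2 of either group, so the fold change moves with the library left out.

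Of 11 genes of miRNA tailing and turnover, 8 were tested, with a median of 0.08, 2 at an unadjusted p under 0.05 and 2 called by DESeq2 (8.55% over all genes). LIN28A, LIN28B and TRIM71, which belong to the let-7 pathway of early development, had 0 counts in every library. The limit a count of 0 allows (3 counts a library) is 0.225 to 0.313 CPM. ZSWIM8, a ubiquitin ligase subunit that acts when a target RNA triggers decay of its miRNA, had 95 and 61.4 CPM with TRMT13 siRNA, against 217 and 154 CPM with control siRNA. Both TRMT13 siRNA libraries were far below, its log2 fold change being -1.25 (SE 0.30, edgeR adjusted p = 0.0721, DESeq2 adjusted p = 0.00483). PARN, a poly(A) ribonuclease picked out after its values were seen, had 51.2 and 73.7 CPM with TRMT13 siRNA, against 26.4 and 36.2 CPM with control siRNA (log2 fold change 0.99, SE 0.29, edgeR adjusted p = 0.112, DESeq2 adjusted p = 0.0493). With a group of 1 library, ZSWIM8 passed edgeR without control siRNA replicate 2 (adjusted p = 0.00475) and without TRMT13 siRNA replicate 1 (0.000528), and PARN without that same TRMT13 siRNA library (0.00709). In both groups ZSWIM8 was higher in replicate 1 and PARN in replicate 2, so these fits also shift the balance of replicate numbers.

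The 10 sensors of double-stranded RNA, which meet an siRNA duplex before or beside Argonaute, had a median of 0.04, with 2 at an unadjusted p under 0.05 and 0 called by DESeq2. TLR3, an endosomal receptor, had the smallest p, at 8.37 and 11.5 CPM with TRMT13 siRNA, against 19.1 and 19.3 CPM with control siRNA (log2 fold change -0.95, SE 0.30, edgeR adjusted p = 0.121). In the list of other Argonaute family genes 2 of 5 were tested, with a median of -0.89, 1 at an unadjusted p under 0.05 and 1 called by DESeq2, AGO4.

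**Figure D4:**
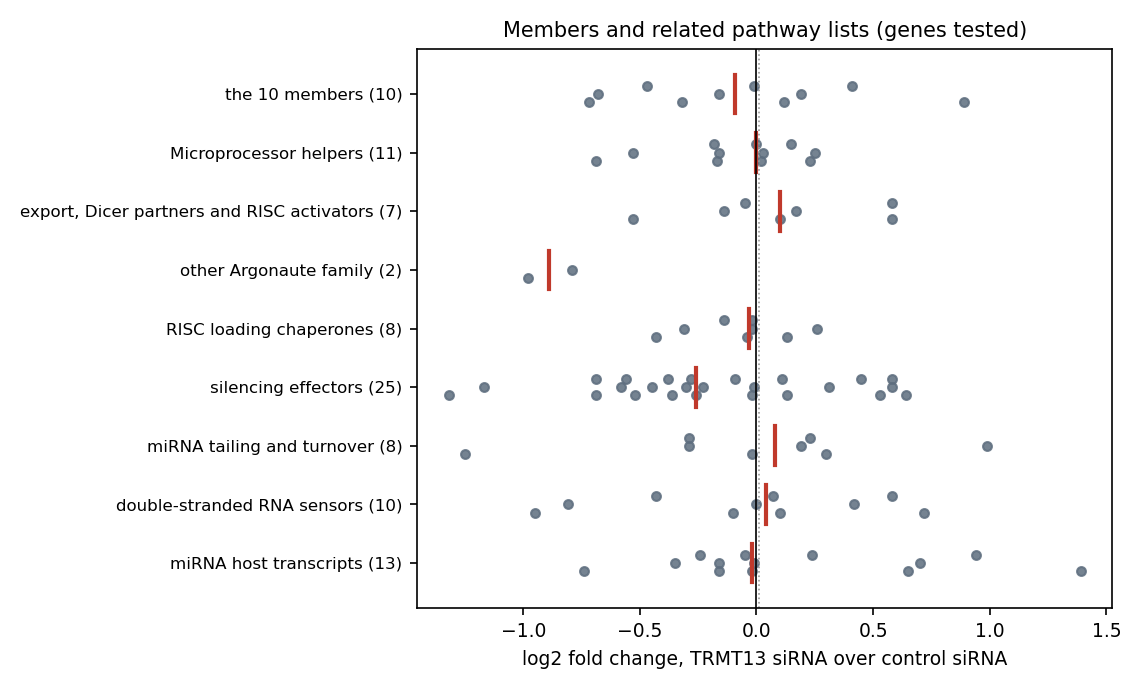
Log2 fold change, TRMT13 siRNA over control siRNA, of each tested gene (grey points, number tested in brackets) for the 10 genes and the 8 lists. Red bars are list medians, from -0.89 in the list of other Argonaute family genes (2 genes) to 0.10 among export genes, Dicer partners and RISC activators, and the dotted line is the median of all genes, 0.01.

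The transcripts from which the Microprocessor cuts miRNAs were read through the 43 host transcripts whose symbol names a miRNA, of which 13 passed the filter. Their median was -0.02, with 2 at an unadjusted p under 0.05 and 0 called by DESeq2. A host's level is not that of the mature miRNA, which these libraries do not measure. The sequences below are those of the 2 hosts with the smallest p-values and of 3 hosts whose miRNAs share seeds, from RefSeq on GRCh38.p14, with the seed in capitals.
hsa-miR-221-3p, in MIR222HG, chrX:45746180-45746202, minus strand: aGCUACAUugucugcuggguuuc
hsa-miR-222-3p, in MIR222HG, chrX:45747036-45747056, minus strand: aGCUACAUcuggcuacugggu
hsa-miR-503-5p, in MIR503HG, chrX:134546371-134546393, minus strand: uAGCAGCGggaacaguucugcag
hsa-miR-100-5p, in MIR100HG, chr11:122152275-122152296, minus strand: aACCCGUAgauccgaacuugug
hsa-miR-99a-5p, in MIR99AHG, chr21:16539101-16539122, plus strand: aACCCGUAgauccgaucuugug
hsa-let-7a-5p, in MIR100HG, chr11:122146568-122146589, minus strand: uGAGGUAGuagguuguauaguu
hsa-let-7c-5p, in MIR99AHG, chr21:16539838-16539859, plus strand: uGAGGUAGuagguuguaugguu
hsa-let-7b-5p, in MIRLET7BHG, chr22:46113691-46113712, plus strand: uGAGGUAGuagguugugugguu

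MIR222HG, host of miR-221 and miR-222, which share the seed GCUACAU, had 10.7 and 10.6 CPM with TRMT13 siRNA, against 17.0 and 18.6 CPM with control siRNA. Replicates were close and the groups apart, its log2 fold change being -0.74 (SE 0.27, edgeR adjusted p = 0.166). MIR503HG, picked out after its values were seen, had 32.1 and 12.3 CPM with TRMT13 siRNA, against 11.1 and 5.88 CPM with control siRNA. Its replicates differed widely, and the log2 fold change was 1.39 (SE 0.53, edgeR adjusted p = 0.175). It was higher in replicate 1 of both groups, and it passed with a group of 1 library, without control siRNA replicate 1 (edgeR adjusted p = 0.0107) and without TRMT13 siRNA replicate 2 (0.0297). Both of these raise the share of replicate 1 with TRMT13 siRNA relative to control siRNA. MIR210HG, host of miR-210, had 20.9 and 5.92 CPM with TRMT13 siRNA and 23.4 and 8.28 CPM with control siRNA. Its log2 fold change was -0.24 with all 4 libraries, and -1.41 without TRMT13 siRNA replicate 1 (edgeR adjusted p = 0.0486), a gene picked out for that value. It was far higher in replicate 1 of both groups, so that call sets a replicate 2 library alone against both control siRNA libraries and goes with the replicate number. The next 3 hosts were picked out for their seeds and not by their p-values. MIR100HG and MIR99AHG host clusters with the same seeds, ACCCGUA of the miR-99/100 family and GAGGUAG of let-7. MIR100HG had 8.84 and 11.5 CPM with TRMT13 siRNA and 12.3 and 10.4 CPM with control siRNA, which overlap (log2 fold change -0.16, SE 0.31, edgeR adjusted p = 0.800). MIR99AHG had 5.42 and 7.49 CPM with TRMT13 siRNA, against 3.76 and 4.18 CPM with control siRNA, which do not (log2 fold change 0.70, SE 0.36, edgeR adjusted p = 0.284). MIRLET7BHG, with the let-7 seed again, had 32.2 and 16.7 CPM with TRMT13 siRNA and 37.4 and 13.4 CPM with control siRNA, so it differed more between replicate numbers than between siRNAs (log2 fold change -0.05, SE 0.53, edgeR adjusted p = 0.967).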

How the data were processed

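Total RNA extracted with Trizol went into an Illumina TruSeq RNA kit, per the labels' protocols. The authors deposited whole-number counts of reads for each gene symbol. Tools listed without a role in the submitters' processing notes are HTSeq 0.6.1, STAR 2.5.2b, cutadapt and limma, with GRCh37 and hg19 as builds. No annotation or strand setting is stated in the sources used here, so it is not known whether reads of antisense partners were kept apart.

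Counts of the 4 libraries (2 a group) went into edgeR 4.0.16 (R 4.3.3) with TMM, filterByExpr (minimum count 10, minimum total 15) and the quasi-likelihood test with no covariate. The call was a Benjamini-Hochberg adjusted p under 0.05 over all 13022 genes. The SE is the log2 fold change over the root of F, and the 95% interval uses the test's degrees of freedom. The procedure was run on simulated counts drawn independently for each library. That run checked the code and not the effect of shared replicate numbers. CPM was computed on the TMM scale. Replicates differed by more than sampling noise, with a chi-square of 44.5 (TRMT13 siRNA) and 40.4 (control siRNA) per degree of freedom. Each library was entered as its own sample, and this spread does not show whether the replicates were separate cultures.

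The members and lists were chosen with earlier results of these data known. Named genes were the 10 members, TRMT13, TRMT2A, C5orf22 and, in each list, the tested gene with the smallest p where none was called; other list genes, PIWIL1, MIR100HG, MIR99AHG and MIRLET7BHG among them, were picked later. Of the list genes, 5 were matched by an older symbol. Alternatives were 3 scalings, 2 filters, DESeq2 1.42.0, limma-voom 3.58.1, the replicate number as a block, and each library left out. 1 marker gene of the lists is not reported here.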

Additional observations from a re-analysis of the deposited data

How the results depend on the processing

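The log2 fold change of TRMT13 kept its sign and its call under every alternative run, between -2.26 and -1.81 with 1 library left out. The number of members called was 0 in the other scalings, with a mean of at least 5 CPM, in limma-voom and with 1 library left out (0 to 0). It was 1 with no filter on low counts and 1 in DESeq2, DROSHA both times. Over all genes there were 389 calls, 1949 with no filter on low counts, 1130 in DESeq2, and 678 to 935 with 1 library left out. The cause of these differences was not tested. The log2 fold change of AGO2 was 0.01 with library size alone, and between -0.10 and 0.08 with 1 library left out.

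The groups share replicate numbers, and the labels do not say what a number stands for. Deviations of replicate 1 from its group mean correlated between the groups at r = 0.639 (over 13022 genes of these libraries, which do not count as replicates). With the replicate number as a block, edgeR called 5227 genes, 40.1% of those tested, and 5 of the 10 members. DROSHA (adjusted p = 1e-04) and TNRC6C (0.0477) were higher, and DICER1 (0.000632), TNRC6A (0.00125) and DGCR8 (0.016) were lower. The same edgeR fit called 31 of 84 list genes, 36.9%, of which 12 were silencing effectors, 6 sensors of double-stranded RNA, 3 genes of export and Dicer partners, 3 host transcripts, 2 Microprocessor helpers, 2 of tailing and turnover, 2 other Argonaute family genes and 1 chaperone. The members' and the list genes' shares thus lie near that of all genes, and with 2 pairs the data do not establish that the numbers pair the libraries. The count of 0 called members depends on leaving the replicate number out of the fit. Depth limits the rare transcripts, where 3 counts are 0.225 to 0.313 CPM, more than the 10 members, each of which had at least 321 counts in every library.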
